A study of Canis lupus familiaris with 27 samples.

Results

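The proteasome is the protease complex that degrades proteins tagged with ubiquitin. Its core particle is a barrel of alpha rings around beta rings, and PSMB5, PSMB6 and PSMB7 carry the catalytic sites. A regulatory particle, made of a base of ATPases and a lid, binds the tagged protein, removes ubiquitin and feeds the unfolded chain into the core. In cells exposed to interferon, and constitutively in many immune cells, the subunits PSMB8, PSMB9 and PSMB10 take the places of the catalytic subunits and form the immunoproteasome, which shapes the peptides presented on MHC class I. The activators PSME1 and PSME2 (PA28 alpha and beta), PSME3 (nuclear PA28 gamma) and PSME4 (PA200) can cap the core in place of the regulatory particle, and assembly chaperones help to build it.

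The members were all genes whose symbol begins with PSMA, PSMB, PSMC, PSMD, PSME, PSMF or PSMG followed by a digit, with the brightest probe set (highest mean of the 27 tumors) standing for the gene. The rule found 44 genes among 15115 genes with a probe set of a single symbol. Of these, 42 encode parts of the proteasome, its activators, its inhibitor or its chaperones. PSMC3IP, a cofactor of meiotic recombination, and PSME3IP1, a partner of PSME3, are not counted among these and are given apart. PSMB7, PSMC1, PSMD1, PSMD4, PSMD5 and PSMG4 had no probe set of their own and were not analysed here.

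The samples were primary simple mammary carcinomas of female dogs, hybridised to 1 oligonucleotide array each. The 13 metastatic carcinomas had spread to a regional lymph node at surgery, and the 14 non-metastatic carcinomas had not. The group names refer to the lymph node at surgery only, since a dog of the non-metastatic group later developed lung metastases, and its sample was not identified here. All were invasive, estrogen receptor negative and macrodissected so that sections held more than 70% carcinoma cells. The non-metastatic tumors were selected for size: their diameter averaged 5.21 ± 3.53 cm (SD, n = 14) against 2.42 ± 1.32 cm (SD, n = 13), and age averaged 11.4 ± 1.65 and 12.4 ± 2.66 years. Grade III was given to 7 metastatic and 9 non-metastatic tumors and grade II to 6 and 5, by the labels, although the grade of 1 non-metastatic tumor differs between its label and the published sample list. Each array is a separate dog, and tumors are numbered within their group by deposit order only. Values are log2 signals, and differences are metastatic minus non-metastatic on that scale. A gene was called where limma's adjusted p over all 15115 genes was under 0.05. Probe sets differ in brightness at equal abundance, so that levels of different genes are not ranked, and of a ratio between genes only the difference between the groups is read.

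The epithelial markers EPCAM, KRT8 and KRT18 had mean log2 signals of 13.8, 12.6 and 12.1 in metastatic and 13.4, 12.5 and 11.8 in non-metastatic tumors. Of 7 epithelial markers, 0 were called (1 at an unadjusted p under 0.05), but all 7 differences were above 0, with a median of 0.46. All 8 fibroblast and all 12 macrophage markers also had differences above 0, with medians of 0.53 and 0.37. Of these, 0 were called (3 in each list at an unadjusted p under 0.05). Several whole-array measures moved with the groups. The upper quartile of the array ran from 7.88 to 8.00 in metastatic and from 7.52 to 7.93 in non-metastatic tumors, 5 of 10 smooth muscle and myoepithelial markers were lower and 28 of 31 mitosis genes were higher and 1 lower in metastatic tumors. In addition, 11 of 13 metastatic but 0 of 14 non-metastatic sample titles end in the letter T, whose meaning is not given in the sources used here. In a bulk tumor, fewer cells of a type and less RNA per cell cannot be told apart.

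Of the 44 members, 17 were higher in metastatic tumors and 0 were lower by limma, and 40 differences were above 0. Over all genes tested, 10.6% were called higher and 7.27% lower. The median difference was 0.42 for the members and 0.00 for all genes. Without the adjustment, 23 members were higher and 0 lower at p under 0.05, and the ordinary ANOVA called 15 and 0. Most members are bright on the array: 33 of the 44 had a mean log2 signal above 10. Among the 1994 genes above that brightness, 18% were called higher, 5.97% were called lower and the median difference was 0.15. Among the 33 bright members, 16 were called higher and the median difference was 0.41.

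**Figure D1:**
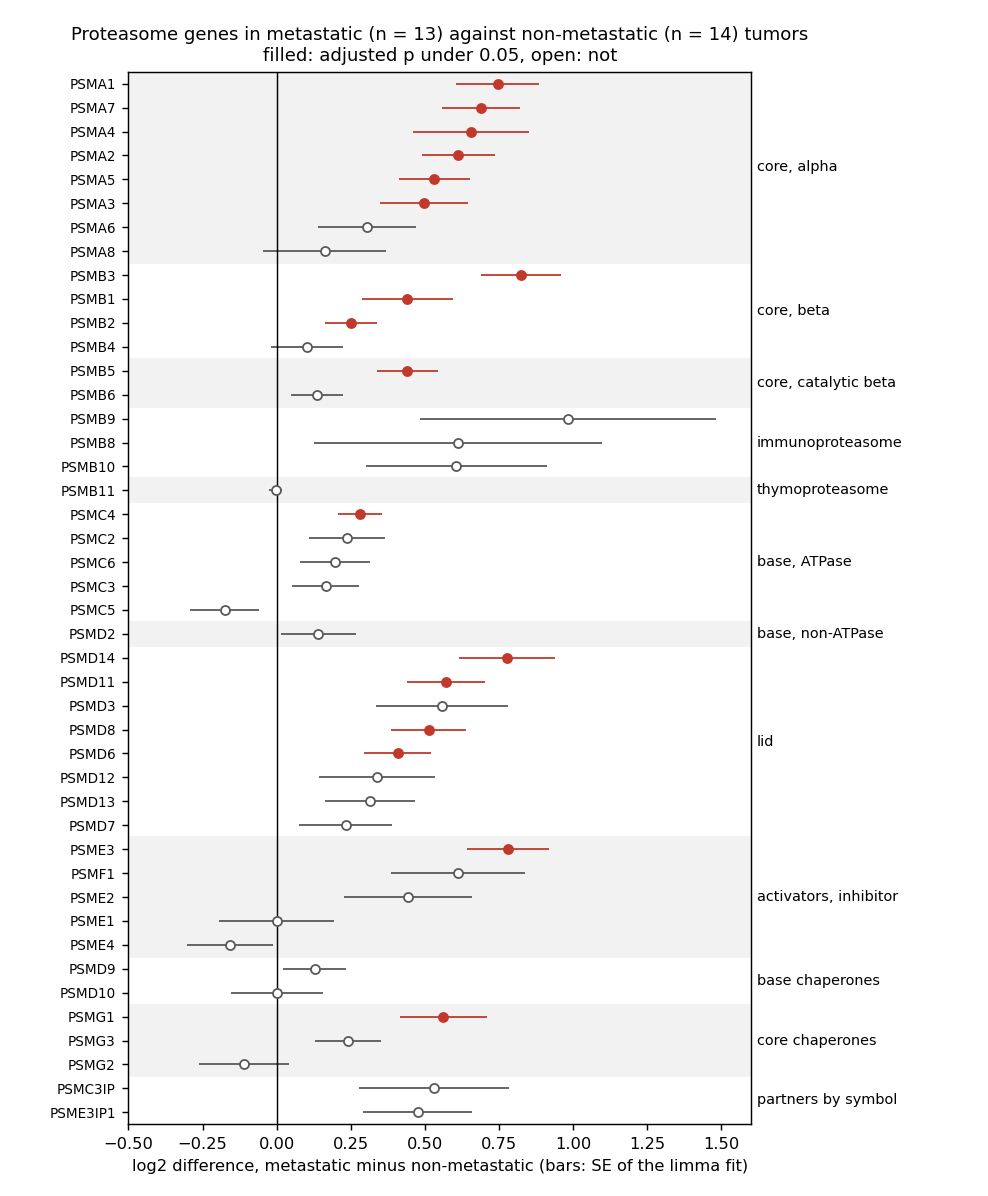
Log2 difference of each of the 44 genes between 13 metastatic and 14 non-metastatic tumors, with the SE of the limma fit, grouped by role; filled points had an adjusted p under 0.05. The filled points fall mainly among the core and lid subunits, and the immunoproteasome genes have the widest bars.

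The core particle was the class with the most calls. Of the 13 measured subunits PSMA1 to PSMA7 and PSMB1 to PSMB6, 10 were higher in metastatic tumors, all 13 differences were above 0 and their median was 0.50. The alpha ring forms the gate through which proteins enter. PSMA7 had log2 signals of 12.90 (lowest), 13.35 (median) and 13.96 (highest) in the non-metastatic tumors and 13.51, 14.06 and 14.56 in the metastatic tumors. All 13 metastatic tumors thus lay above the non-metastatic median, yet the groups overlapped, with 4 non-metastatic tumors above the lowest metastatic tumor. Its difference was 0.69 (SE 0.13, adjusted p = 0.00145). PSMA1 ran from 9.29 over a median of 9.75 to 10.42 in non-metastatic tumors and from 9.86 over 10.55 to 11.34 in metastatic tumors, a difference of 0.75 (SE 0.14, adjusted p = 0.00124). PSMA2 ran from 11.18 over 11.70 to 12.37 and from 11.84 over 12.41 to 12.73, a difference of 0.61 (SE 0.12, adjusted p = 0.00191). In both genes every metastatic tumor again exceeded the non-metastatic median. PSMA5, PSMA4 and PSMA3 were higher by 0.53, 0.66 and 0.50 (adjusted p = 0.00424, 0.0221 and 0.0219), although the second probe sets of PSMA4 and PSMA3, at 0.36 and 0.31, did not pass (adjusted p over probe sets 0.156 and 0.0712). PSMA6 differed by 0.31 without passing the test (adjusted p = 0.196).

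PSMA8 is the alpha subunit of the testis form, which replaces PSMA7 in spermatocytes. Its log2 signal lay between 2.34 and 2.67 in 26 tumors, near the lower end of the array, and at 5.25 in metastatic tumor 4. The group difference was 0.16 (SE 0.21, adjusted p = 0.596), while the medians were 2.42 in metastatic and 2.44 in non-metastatic tumors.

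Among the beta subunits without catalytic activity, PSMB3 had the smallest adjusted p of all members. Its log2 signal ran from 11.74 over 12.32 to 12.83 in non-metastatic tumors and from 12.45 over 13.14 to 13.66 in metastatic tumors, a difference of 0.82 (SE 0.13, adjusted p = 0.000415). The 2 other probe sets of PSMB3 were higher by 0.79 and 0.70. PSMB1 (11.44, 11.89 and 13.05 against 11.80, 12.23 and 13.21) and PSMB2 (11.81, 12.29 and 12.71 against 12.12, 12.48 and 12.78) passed the test narrowly, with adjusted p of 0.0472 and 0.0482. Neither call was firm, since leaving out a single tumor ended the call of PSMB1 in 20 and that of PSMB2 in 17 of 27 cases. PSMB4 did not pass: its non-metastatic values of 12.02, 12.72 and 13.10 and its metastatic values of 12.32, 12.63 and 13.51 gave a difference of 0.10 (SE 0.12, adjusted p = 0.563).

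The catalytic subunits measured differed in their result. PSMB5, which cleaves after hydrophobic residues, ran from 12.01 over 12.34 to 12.72 in non-metastatic tumors and from 12.33 over 12.70 to 13.45 in metastatic tumors. It was higher by 0.44 (SE 0.10, adjusted p = 0.00531), and 12 of 13 metastatic tumors exceeded the median of the non-metastatic group. PSMB6, which cleaves after acidic residues, ran from 10.95 over 11.22 to 11.52 and from 10.88 over 11.41 to 11.66, a difference of 0.14 (SE 0.09, adjusted p = 0.274). Whether the difference of PSMB5 exceeds that of PSMB6 was not tested.

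**Figure D2:**
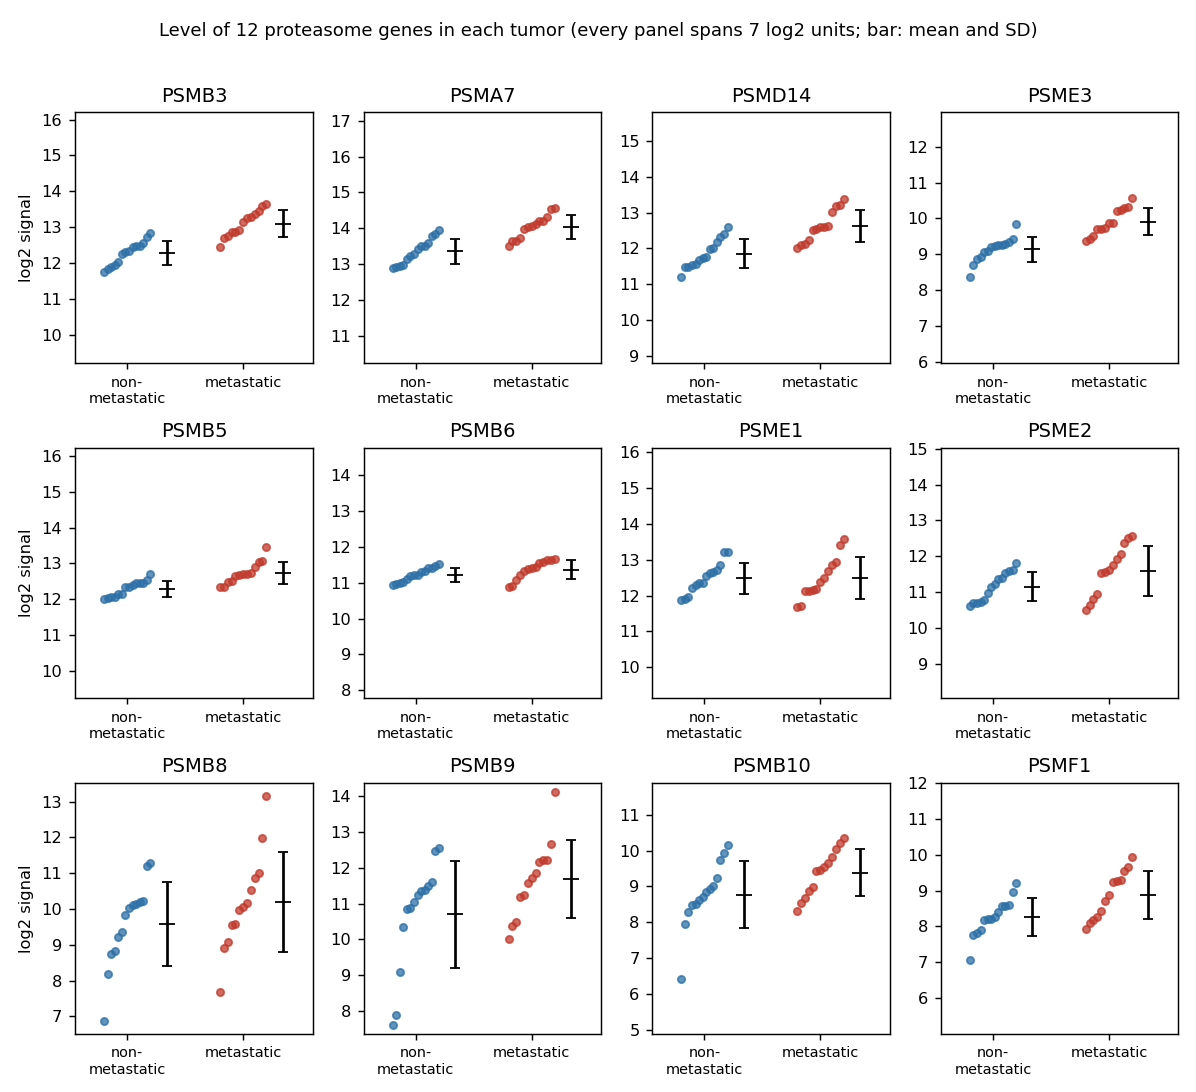
Log2 signal of 12 genes in each tumor, sorted within the group, with the mean and SD; every panel spans the same range of log2 units. PSMB3, PSMA7, PSMD14 and PSME3 are shifted between narrow groups, whereas PSMB8, PSMB9 and PSMB10 spread widely within both groups.

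The immunoproteasome genes had differences as large as those of the core, but 0 of 3 passed the test by limma (0 at an unadjusted p under 0.05 and 0 by the ordinary ANOVA). PSMB9 ran from 7.61 over 11.15 to 12.55 in non-metastatic tumors and from 10.02 over 11.70 to 14.12 in metastatic tumors, a difference of 0.98 (SE 0.50, adjusted p = 0.163). PSMB8 ran from 6.88 over 9.92 to 11.28 and from 7.67 over 10.06 to 13.15, a difference of 0.61 (SE 0.49, adjusted p = 0.377). PSMB10 ran from 6.43 over 8.77 to 10.17 and from 8.31 over 9.47 to 10.35, a difference of 0.61 (SE 0.30, adjusted p = 0.159). The groups overlapped over most of their range in all 3 genes. The SD within groups was 1.32 for PSMB9, 1.29 for PSMB8 and 0.81 for PSMB10, the 3 widest of the 44 members, against 0.27 for PSMB5 and 0.23 for PSMB6. In some tumors, the counts of core and immunoproteasome genes above the non-metastatic median were both low or both high. Non-metastatic tumors 1, 2 and 10 had 0, 1 and 2 of 13 core subunits and 0 of 3 immunoproteasome genes above the non-metastatic median, non-metastatic tumor 14 had 13 and 3, and metastatic tumors 12 and 13 had 13 and 12 core subunits and 3 of 3 immunoproteasome genes. Other tumors went apart. Non-metastatic tumors 7 and 9 each had 2 of 13 core subunits above the non-metastatic median but 3 of 3 immunoproteasome genes. Non-metastatic tumor 8 had the lowest PSMB8 and PSMB10 (6.88 and 6.43), yet it had 10 of 13 core subunits above the non-metastatic median and the highest PSMA2, PSMA4, PSMA6, PSMA7 and PSMB1 of its group. Metastatic tumors 2 and 6 had 13 and 11 core subunits above that median but 0 of 3 immunoproteasome genes.

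PSMB8, PSMB9 and PSMB10 varied together from tumor to tumor. After removal of the group means, the correlation over the 27 tumors was 0.85 between PSMB8 and PSMB9, 0.80 between PSMB8 and PSMB10 and 0.63 between PSMB9 and PSMB10. In the RefSeq annotation of assembly UU_Cfam_GSD_1.0, PSMB8 and PSMB9 both neighbour the peptide transporter gene TAP1, and PSME1 and PSME2 both neighbour EMC9. PSME1 and PSME2 correlated at 0.83. Between an immunoproteasome gene and a core gene, the 42 correlations had a median of 0.15 and ran from -0.36 to 0.62. With a regulatory particle gene, the 42 correlations had a median of 0.04 and ran from -0.31 to 0.35. The 91 correlations among the 14 core genes, PSMA8 included, had a median of 0.32 and ran from -0.47 to 0.78. Single pairs outside the immunoproteasome were as close, with PSMA7 and PSMD14 at 0.85. These correlations share the arrays and their normalization and are descriptions.

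**Figure D3:**
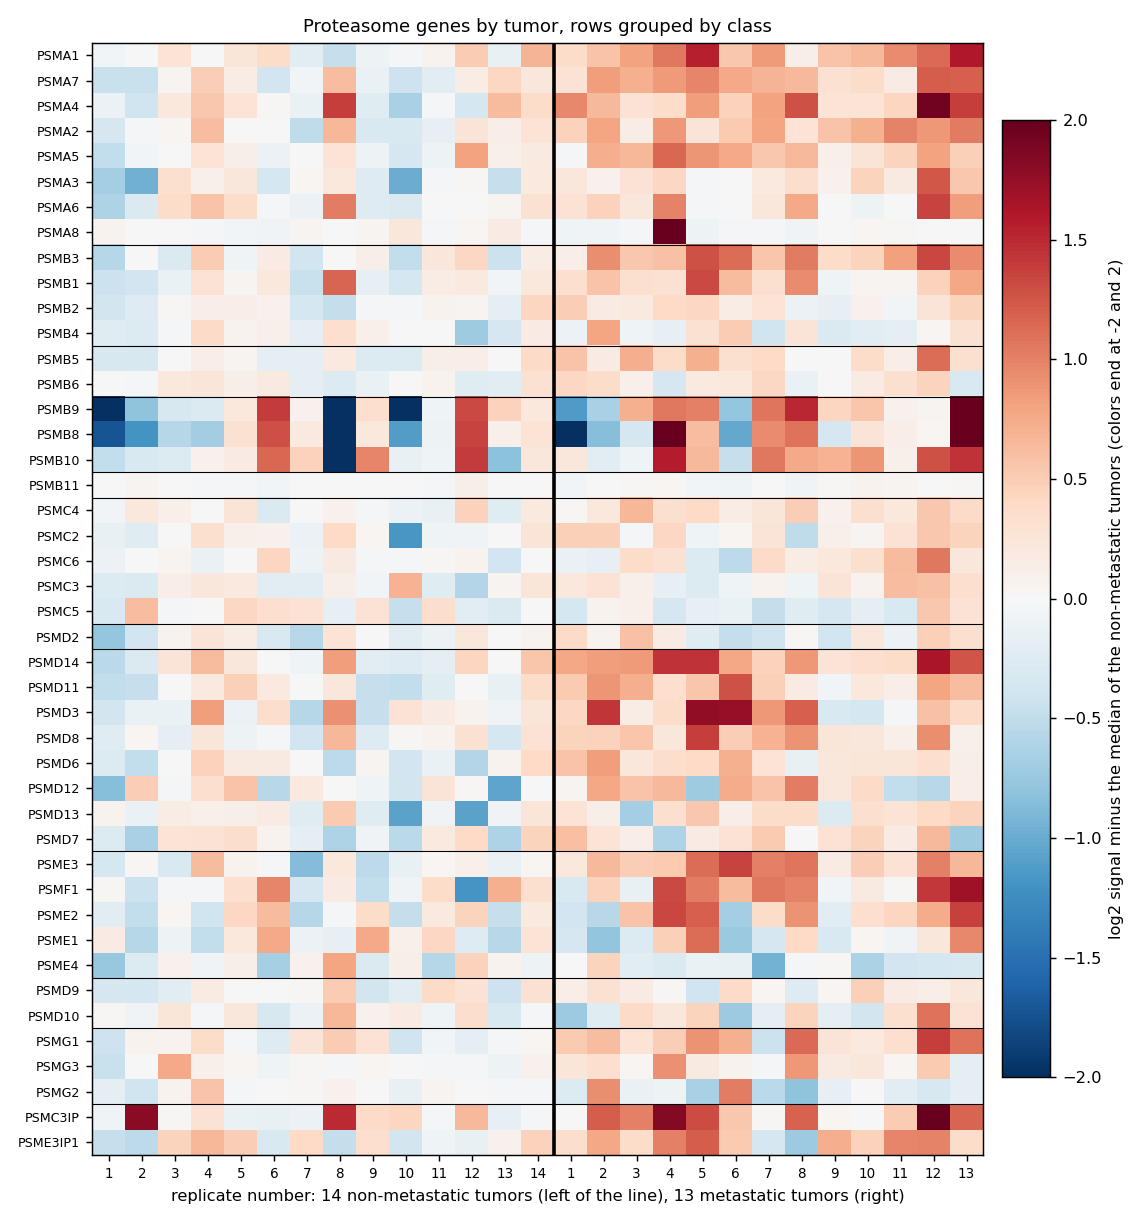
Log2 signal of the 44 genes in each tumor relative to the median of the non-metastatic tumors, rows grouped by role and separated by lines. The core rows are mostly above that median in the metastatic tumors, and the rows PSMB9, PSMB8 and PSMB10 vary together in both groups.

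The core was also counted tumor by tumor. The number of the 13 core subunits above the non-metastatic median ran from 8 over a median of 11 to 13 in metastatic tumors. In the non-metastatic tumors, it ran from 0 over 7.5 to 13. Non-metastatic tumors 14 and 4 had the most, with 13 and 12, whereas non-metastatic tumors 1 and 2 had 0 and 1. For the 14 base and lid genes, the counts ran from 8 over 12 to 13 in metastatic and from 1 over 7 to 12 in non-metastatic tumors.

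PSMB11 is the catalytic subunit of the thymus. Its log2 signal stayed between 1.77 and 1.97 in all 27 tumors, and the 2 groups had medians of 1.87 (metastatic) and 1.86 (non-metastatic).

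In the regulatory particle, 5 of 14 measured genes were higher in metastatic tumors, 13 differences were above 0 and the median was 0.30. The calls were unevenly spread between base and lid, with 1 of 6 base genes and 4 of 8 lid genes, a contrast that was not tested. In the base, the ATPases unfold the substrate. PSMC4 was the base gene called, at 10.55, 10.83 and 11.29 in non-metastatic and 10.86, 11.15 and 11.49 in metastatic tumors, with all 13 metastatic tumors above the non-metastatic median. Its difference was 0.28 (SE 0.07, adjusted p = 0.0115) by this brightest probe set. A dimmer probe set of PSMC4 was higher by 0.64 (adjusted p over probe sets = 0.0037). The dimmest, at a mean log2 signal of 2.41, differed by -0.22 (adjusted p over probe sets = 0.065). PSMC2 (10.58, 11.75 and 12.14 against 11.24, 12.01 and 12.29), PSMC6 (10.29, 10.68 and 11.11 against 10.15, 10.90 and 11.74) and PSMC3 (10.41, 11.00 and 11.69 against 10.72, 11.10 and 11.61) had differences of 0.24, 0.20 and 0.17, none of which passed the test. The 2 other probe sets of PSMC3 had negative differences of -0.32 and -0.33, so that no direction is given for this gene. PSMC5 differed by -0.18 (SE 0.12, adjusted p = 0.289), and it passed as lower when the arrays were quantile normalized again or centred on their upper quartile. PSMD2, the scaffold of the base to which ubiquitin receptors bind, ran from 10.19 over 10.96 to 11.23 and from 10.48 over 11.03 to 11.54, a difference of 0.14 (adjusted p = 0.443). Another of its probe sets was higher by 0.53 (adjusted p over probe sets = 0.0206).

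In the lid, PSMD14 had the smallest adjusted p. It is the metalloprotease that cuts ubiquitin chains from the substrate. Its log2 signal ran from 11.21 over 11.76 to 12.60 in non-metastatic tumors and from 12.03 over 12.59 to 13.38 in metastatic tumors, a difference of 0.78 (SE 0.16, adjusted p = 0.00247). All 13 metastatic tumors were above the non-metastatic median, and its dimmer probe set was higher by 0.86. PSMD8 (11.13, 11.52 and 12.18 against 11.61, 11.97 and 12.90) and PSMD6 were higher by 0.51 and 0.41 (adjusted p = 0.00776 and 0.0158). PSMD7, the inactive partner of PSMD14, ran from 10.33 over 10.98 to 11.42 and from 10.26 over 11.24 to 11.62, a difference of 0.23 (SE 0.16, adjusted p = 0.294). PSMD3, PSMD12 and PSMD13 had differences of 0.56, 0.34 and 0.31 and did not pass.

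PSMD11, a lid subunit implicated in the assembly of active proteasomes in stem cells, gave opposite results by probe set. The brighter probe set ran from 10.23 over 10.72 to 11.19 and from 10.66 over 11.24 to 11.99, a difference of 0.57 (SE 0.13, adjusted p = 0.00478). The dimmer probe set, with mean log2 signals of 6.01 and 6.76 in metastatic and non-metastatic tumors, differed by -0.75 (SE 0.21, adjusted p over probe sets = 0.0151). Averaging both gave -0.09, so the direction of PSMD11 depends on the probe set. Of the 29 members with several probe sets, 11 had differences of both signs. PSMD3, by contrast, missed the test with its brightest probe set while its 3 other probe sets were higher by 0.52, 0.81 and 0.90 (adjusted p over probe sets 0.0488, 0.0400 and 0.0148).

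The activators fell into separate patterns. PSME3, the nuclear activator that promotes ubiquitin-independent degradation of cell cycle regulators, ran from 8.35 over 9.22 to 9.85 in non-metastatic tumors and from 9.38 over 9.87 to 10.57 in metastatic tumors. It was higher by 0.78 (SE 0.14, adjusted p = 0.00084), and only 2 non-metastatic tumors exceeded the lowest metastatic tumor. PSME1, which together with PSME2 forms the interferon-inducible activator, had values of 11.88, 12.46 and 13.21 against 11.68, 12.38 and 13.58. Its means were nearly equal, with a difference of 0.00 (SE 0.19, adjusted p = 0.999). PSME2 ran from 10.60 over 11.18 to 11.81 and from 10.51 over 11.60 to 12.55, a difference of 0.44 (SE 0.22, adjusted p = 0.145). Another probe set of PSME2, with mean log2 signals of 11.2 and 10.3, differed by 0.84 (adjusted p over probe sets = 0.0279). PSME4, an activator linked to the degradation of acetylated histones, ran from 9.50 over 10.26 to 11.05 and from 9.31 over 10.04 to 10.71, a difference of -0.16 (SE 0.15, adjusted p = 0.451). The other probe sets of PSME4 differed by 0.06 and 0.18 (adjusted p over probe sets 0.820 and 0.492), so that no direction is given for this gene. PSMF1, the inhibitor that blocks activator binding, ran from 7.07 over 8.24 to 9.22 and from 7.94 over 8.88 to 9.94, a difference of 0.61 (SE 0.23, adjusted p = 0.0587) just outside the threshold.

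Of the 5 measured assembly chaperones, 1 was higher and the median difference was 0.13. PSMG1, which with PSMG2 builds the alpha ring, ran from 9.66 over 10.07 to 10.58 and from 9.65 over 10.59 to 11.46. It was higher by 0.56 (SE 0.15, adjusted p = 0.0106) with 12 of 13 metastatic values beyond the median of the other group, while its second probe set, at 0.45, did not pass (adjusted p over probe sets = 0.0657). Its partner PSMG2 had values of 11.85, 12.24 and 12.80 against 11.44, 12.05 and 13.27, a difference of -0.11 (SE 0.15, adjusted p = 0.622). The other probe sets of PSMG2 differed by 0.19 and, at a mean log2 signal of only 2.84, by -0.15 (adjusted p over probe sets 0.468 and 0.0152). No direction is therefore given for PSMG2. PSMG3 (5.44, 5.89 and 6.64 against 5.70, 6.07 and 6.80) differed by 0.24 without passing. The base chaperones PSMD9 (8.20, 8.62 and 9.12 against 8.21, 8.75 and 9.10) and PSMD10, also known as the oncoprotein gankyrin (9.87, 10.18 and 10.84 against 9.45, 10.41 and 11.27), differed by 0.13 and 0.00. Other probe sets of both genes passed: PSMD9 was higher by 0.40 and 0.70 and PSMD10 by 0.50. The members given apart, PSMC3IP (5.35, 5.51 and 7.32 against 5.50, 6.52 and 7.64) and PSME3IP1 (8.19, 8.71 and 9.38 against 7.99, 9.23 and 9.92), differed by 0.53 and 0.48, and neither passed. Another probe set of each was higher, by 1.15 and 0.62 (adjusted p over probe sets 0.0164 and 0.0363).

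The original work set cutoffs of 0.001 for the q-value of an ANOVA and of 1.7 for the fold. Here the same limits were put on limma's Benjamini-Hochberg adjusted p and fold, so the counts are not those of its gene list. By these limits, 0.597% of the 42860 probe sets were higher and 0.59% lower. Of the 89 member probe sets, 2 passed, both higher: PSMB3 at 1.77-fold and PSME3 at 1.72-fold. Leaving out 1 tumor gave 1 to 3. The folds of the 17 called genes ran from 1.19 to 1.77, most of them under 1.7. Both probe sets of PSMD14, at 1.71-fold and 1.81-fold, exceeded that fold but missed the limit on limma's adjusted p over probe sets (0.00222 and 0.00204). The original work also listed proteasome degradation among the pathways up-regulated in metastatic carcinomas, from a pathway analysis that was not repeated here.

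Within each tumor, an immunoproteasome or activator gene was set against its counterpart, which removes any factor that scales the whole array. The log2 ratio of PSMB8 to PSMB5 averaged -2.54 ± 1.47 (SD, n = 13) in the metastatic group, against -2.71 ± 1.18 (SD, n = 14), a difference of 0.17 (two-sided permutation test of 100000 resamples, p = 0.742). The ratio of PSMB9 to PSMB6 averaged 0.32 ± 1.29 and -0.53 ± 1.50, a difference of 0.85 (permutation p = 0.131). The ratio of PSME2 to PSME3 averaged 1.69 ± 0.75 and 2.02 ± 0.50, a difference of -0.34 (permutation p = 0.182). None of these 3 ratios differed beyond the spread between tumors, and adjusted over the 4 pairs measured their p were 0.742, 0.243 and 0.243.

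The ratio of PSME1 to PSME3 was lower in metastatic tumors. It ran from 2.11 over 3.45 to 4.52 in non-metastatic tumors and from 1.15 over 2.69 to 3.54 in metastatic tumors, and 1 of 13 metastatic tumors exceeded the non-metastatic median. The means of 3.35 ± 0.64 and 2.57 ± 0.65 differed by -0.78 (permutation p = 0.00375, 0.0150 adjusted over the 4 pairs). The higher PSME3 was known when the pairs were fixed, so that this ratio is no independent support for it.

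**Figure D4:**
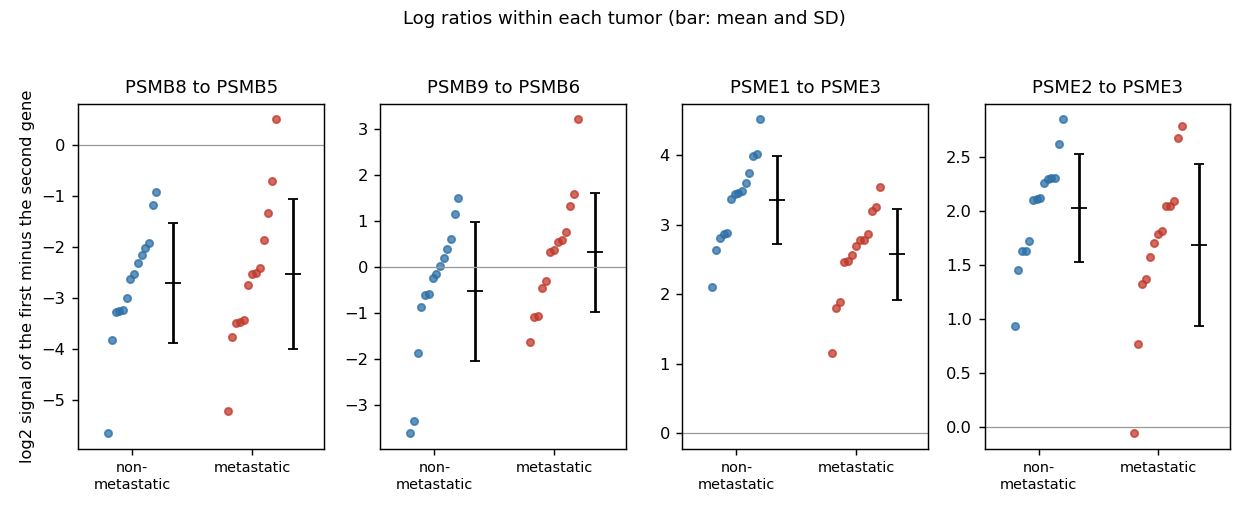
Log2 ratio of each pair of genes in each tumor, sorted within the group, with the mean and SD. The PSME1 to PSME3 ratios of the metastatic tumors are shifted downwards, whereas the ratios of PSMB8 to PSMB5 overlap almost fully.

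The relation of the members to immune cells was examined within groups, by a limma slope on a T and NK cell score with the group in the model. The score is the mean z value of 13 marker genes such as CCL5, CD2 and CD3E. It ran from -0.83 to 2.24 in metastatic and from -0.88 to 2.45 in non-metastatic tumors, and 0 of 13 markers were called between the groups (1 at an unadjusted p under 0.05). Over all genes, 5.77% had a positive and 1.68% a negative slope. Of the 44 members, 3 were positive and 0 negative: PSMB8 at 1.01 log2 units per unit of score (SE 0.23, adjusted p = 0.00876), PSMB10 at 0.61 (SE 0.15, adjusted p = 0.0138) and PSMA1 at 0.24 (SE 0.07, adjusted p = 0.0470). PSMB9 had a slope of 0.73 (SE 0.28, adjusted p = 0.105). Without the 2 tumors farthest from the median score, PSMB8 remained positive with a slope of 1.57 (SE 0.39, adjusted p = 0.0471), whereas PSMB10 at 0.81 and PSMA1 at 0.44 did not pass (adjusted p = 0.157 and 0.0956). With arrays centred on their median, the slope of PSMA1 also missed the threshold (adjusted p = 0.114).

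An interferon response score, the mean z value of 13 genes including MX1, ISG15 and CXCL10 but no member, was added after the data had been seen. Over all genes, 0.377% had a positive slope on it. The positive members were PSMB8 with a slope of 1.31 (SE 0.21, adjusted p = 0.000647), PSMB9 with 1.17 (SE 0.25, adjusted p = 0.0300), PSME2 with 0.55 (SE 0.10, adjusted p = 0.00523) and PSME1 with 0.46 (SE 0.10, adjusted p = 0.0297). PSMB10, also an immunoproteasome gene, was not called, with a slope of 0.56 (SE 0.18, adjusted p = 0.233). The 4 positive members are all genes induced by interferon gamma, and none of the core or regulatory particle genes was called. Without the 2 tumors farthest from the median score the slopes were 1.09, 1.08, 0.54 and 0.47 (SE 0.25, 0.32, 0.13 and 0.12), and none passed (adjusted p = 0.0922, 0.315, 0.120 and 0.201). The slope itself differed between the groups for PSMD10 (0.43 in metastatic, -0.31 in non-metastatic tumors) and PSMD6 (-0.17 and 0.39), where 1.26% of all genes did.

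**Figure D5:**
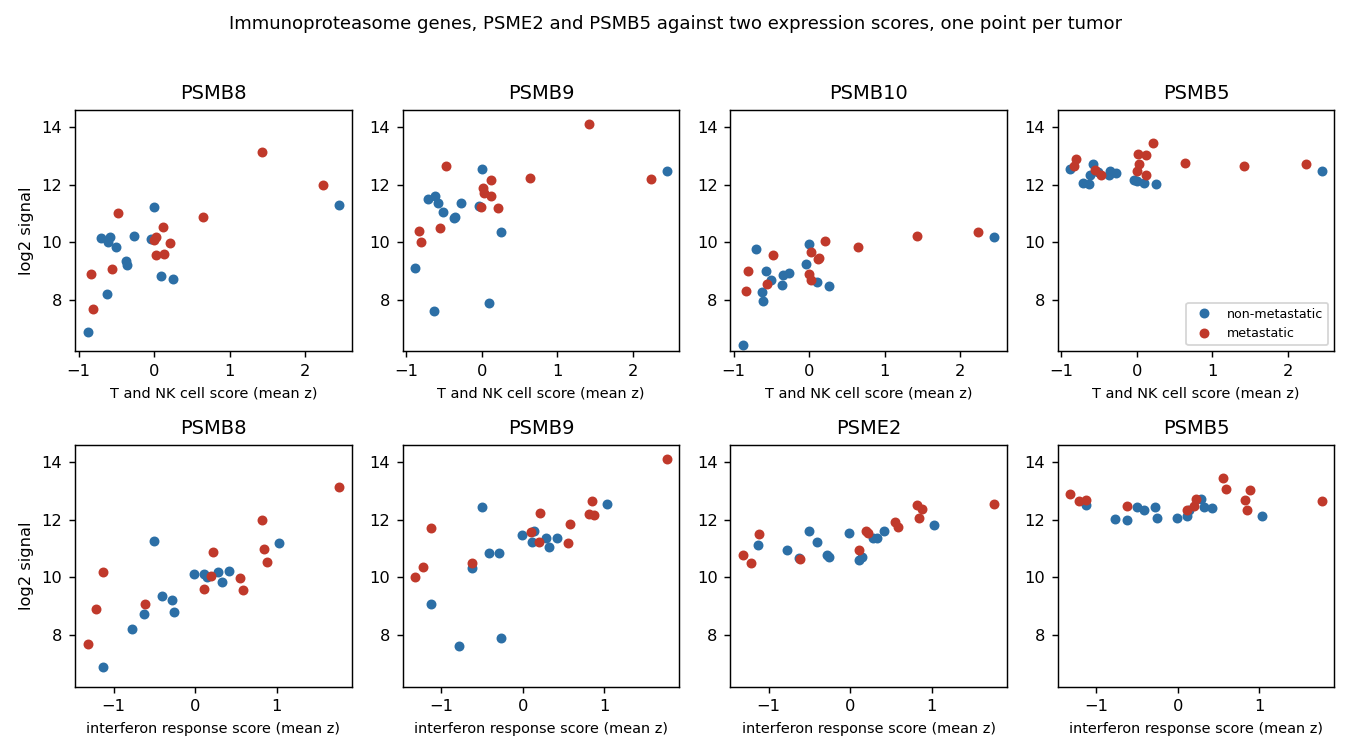
Log2 signal of PSMB8, PSMB9, PSMB10 and PSMB5 in each tumor against the T and NK cell score (top). The bottom row shows PSMB8, PSMB9, PSME2 and PSMB5 against the interferon response score. Both scores are in mean z units. PSMB8 had positive slopes on both scores (1.01 and 1.31), and PSMB5 stays within a narrow band.

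The mitosis score, from 31 genes such as TOP2A, AURKB and BIRC5, was related to other members than the immune scores. Over all genes, 2% had a positive and 1.35% a negative slope within groups. The positive members were PSMD14 with 0.40 (SE 0.10, adjusted p = 0.0293), PSME3 with 0.33 (SE 0.09, adjusted p = 0.0424) and PSMC3IP with 0.67 (SE 0.15, adjusted p = 0.00964), and 0 were negative. With arrays centred on their median, PSMC3IP alone passed, and the slopes of PSMD14 and PSME3 were 0.38 and 0.31 (adjusted p = 0.0703 and 0.0731). Without the 2 tumors farthest from the median score PSMC3IP again passed alone, with adjusted p of 0.0590 for PSMD14 and 0.0985 for PSME3. Tumor size and grade were not related to any member by limma, with 5 members at an unadjusted p under 0.05 for size and 1 for grade. Over all genes, 0.992% were called for size and 0% for grade, and 8.59% and 5.85% had an unadjusted p under 0.05. PSMB9 had a slope on size of -0.23 log2 units per cm (SE 0.09, adjusted p = 0.357).

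Genes that work with the proteasome were given from fixed lists. Of 6 further subunits and assembly factors, UCHL5, a deubiquitinase of the base, and PAAF1, a base chaperone, were higher by 0.41 (SE 0.14, adjusted p = 0.0371) and 0.56 (SE 0.20, adjusted p = 0.0487), and 4 were not called, with SEM1 at 0.50 nearest to the threshold (adjusted p = 0.0940). Of 6 transcriptional regulators, 2 were higher and 1 lower, all 3 subunits of the CCAAT-binding factor NF-Y. NFYB was higher by 0.45 (SE 0.11, adjusted p = 0.00642) and NFYA by 1.08 (SE 0.38, adjusted p = 0.0499), whereas NFYC was lower, with a difference of -0.90 (SE 0.20, adjusted p = 0.00356) and 0 of 13 metastatic tumors exceeded the non-metastatic median. NFE2L1, the factor that raises proteasome genes when the proteasome is inhibited, differed by 0.09 (SE 0.19, adjusted p = 0.759).

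Of 7 shuttle and segregase genes, 2 were higher: UFD1, an adaptor of the segregase VCP, by 0.78 (SE 0.21, adjusted p = 0.0144) and the shuttle UBQLN1 by 0.61 (SE 0.21, adjusted p = 0.0455). NPLOC4, the partner of UFD1, differed by 0.56 (SE 0.20, adjusted p = 0.0554), and VCP itself by -0.28 (SE 0.11, adjusted p = 0.0752). None of 4 genes for ubiquitin and its activation was called by limma (1 at an unadjusted p under 0.05), and UBA6, UBB and RPS27A differed by 0.63, -0.13 and -0.06. None of 8 antigen processing genes was called (1 at an unadjusted p under 0.05), and TAPBP, TAP1 and TAP2 differed by 0.90, 0.61 and 0.37.

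The number of members called depended on what else was in the fit. Quantile normalizing the arrays again gave 9 members higher and 1 lower, where 6.48% of all genes were higher and 6.35% lower. Centring them on their upper quartile gave 12 and 2, where 7.92% of all genes were higher and 37.1% lower. As covariates, array upper quartile left 6 of the 17 calls, tumor size 11 and age with size 6, where 2.67%, 4.33% and 3.08% of all genes were higher, and the median difference of the members was 0.23, 0.33 and 0.32. The GAPDH 3' to 5' probe set difference, a sign of RNA quality, averaged 0.96 in the metastatic group and 0.70 in the other. As a covariate, it left 13 of the 17 calls and added 2, PSMD13 and PSMF1, so that 15 members were higher. Over all genes, 6.66% were higher in that fit, and the median difference of the members was 0.40. With the mitosis score, the smooth muscle score or the title ending in T as a covariate, 0 members were called, while over all 15115 genes these fits called 81, 0 and 10 genes higher. In these fits the median difference of the members was 0.23, 0.12 and 0.34. All titles ending in T are metastatic, so the fit with the title rests on metastatic tumors 1 and 2, whose titles lack the letter. The part of these measures in the proteasome result was not tested.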

How the data were processed

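RNA from 27 canine mammary carcinomas was hybridised to Affymetrix Canine Genome 2.0 microarrays, with 1 array for each tumor. The authors made the deposited log2 values in Partek Genomic Suite (version 6.4) with a GCRMA workflow of background correction, quantile normalization and median polish; scanner files were not used here. Of 43035 probe sets, 175 controls were left out. Gene names came from the platform annotation (29254 probe sets with 1 symbol, 439 with several, 13167 with none), and probe sets with several symbols were not named.

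limma (version 3.58.1, R 4.3.3; lmFit and eBayes) was fitted over all 42860 probe sets, and p-values were adjusted by Benjamini-Hochberg over 15115 genes, each taken at its probe set of highest mean, or over all probe sets for the thresholds of the study. Groups came from the lymph node label. Score slopes had the group in the model. Log ratios of pairs were tested by two-sided permutation of the group labels, 100000 resamples, adjusted over 4 pairs; PSMB10 to PSMB7 could not be computed. Figures were drawn in Python 3.11.15. The fit was tested on simulated data. The members and lists were chosen with earlier results of these data known. All members may be named, with values by tumor for the catalytic and immunoproteasome pairs, activators, inhibitor and, per class, the smallest and largest adjusted p. The number of arrays limits the precision, and p-values cover the spread between tumors. Alternatives tried were other normalizations, probe set rules, variance models, covariates and leaving out each tumor.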

Additional observations from a re-analysis of the deposited data

Results flagged for a closer look

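The slope on the interferon response score differed between metastatic and non-metastatic tumors for 2 members by limma's interaction term, both chosen from all 44 by their adjusted p. PSMD10, a base chaperone, had a slope of 0.43 within the metastatic and of -0.31 within the non-metastatic group, a difference of 0.74 (SE 0.16, adjusted p = 0.0274). PSMD6, a lid subunit, had slopes of -0.17 and 0.39, a difference of -0.56 (SE 0.14, adjusted p = 0.0448). Over all genes 191 of 15115 showed such a difference, and the score was chosen after the data had been seen.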

How the results depend on the processing

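The count of 17 members higher was 9 after another quantile normalization (with 1 lower, PSMC5), 12 with arrays centred on their upper quartile (2 lower, PSMB11 and PSMC5; median of all genes -0.18), 11 with tumor size, 6 with age and size, 6 with the upper quartile of the array and 0 with the title ending in T, the smooth muscle score or the mitosis score as a covariate; the cause was not tested. The second grade of the tumor whose sources differ left 0 members related to grade. Other settings gave 14 to 18 higher and 0 lower, and leaving out each tumor gave 15 to 19 higher and 0 lower. Member probe sets past the thresholds of the study numbered 0 under both rescalings and 1 to 3 without 1 tumor, with 0 lower throughout.

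Members positively related to the T and NK cell score numbered 1 in metastatic tumors alone, 0 in non-metastatic tumors alone (with 1 negative) and 1 without the 2 tumors farthest from the median. For the mitosis score they numbered 5 after quantile normalization, 1 with median centring, 0 in non-metastatic tumors alone and 1 without the 2 farthest tumors. For the interferon response score, added after the data were seen, they numbered 1, 0 and 0 in metastatic tumors, in non-metastatic tumors and without the 2 farthest tumors.

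The difference between the groups in the log ratio of PSMB8 to PSMB5 was -0.14 after adjustment for the T and NK score and from -0.0817 to 0.40 without 1 tumor, with -0.0548 without non-metastatic tumor 8 and -0.0817 without metastatic tumor 13. Without 1 tumor, the differences in the other ratios ranged from 0.61 to 1.01 (PSMB9 to PSMB6), -0.88 to -0.66 (PSME1 to PSME3) and -0.43 to -0.19 (PSME2 to PSME3).

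Among single genes, PSMD11 was -0.0892 as the mean of its probe sets. Values that had not passed the test and changed sign were, for PSME1, -0.14 (quantile), -0.18 (upper quartile centring), -0.18 (array weights), -0.0448 (size), -0.0538 (age and size), -0.0337 (grade), -0.59 (title), -0.31 (upper quartile), -0.0632 (GAPDH 3' to 5' difference), -0.35 (smooth muscle), -0.0425 (T and NK) and -0.11 (interferon); for PSMB6, -0.00916, -0.0388 and -0.0107 (quantile, upper quartile centring, upper quartile); for PSME4, 0.0282 (mean of probe sets), 0.29 (title) and 4.83e-05 (upper quartile). With the title and with the smooth muscle score, PSMB8 was -1.22 and -1.08, PSMB9 -0.44 and -0.65, PSMB10 -0.00132 and -0.15 and PSME2 -0.44 and -0.26. The pair PSMB10 to PSMB7 was not run, since PSMB7 had no probe set of its own. No paired analysis was possible because replicate numbers only name tumors.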
